A study of Mus musculus with 346 samples.

Results

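Single cells of the pubertal mouse mammary gland were split by their keratin transcripts into basal cells, with Krt14 above 40 RPKM, and luminal cells, with Krt8 or Krt18 above 40 RPKM and Krt14 at or below it. RPKM is the number of reads per 1000 bases of a gene and per 1000000 reads of the cell. Of 136 pubertal cells, 119 passed the coverage filter of 100000 reads and 1500 detected genes, and of these 29 were basal (24.4%, 95% interval 17.0 to 33.1), 80 were luminal (67.2%, 58.0 to 75.6) and 10 were neither. Of the 29 basal cells, 24 also passed for Krt8 or Krt18 (82.8%, 64.2 to 94.2). These 24 are called dual cells here, and the other 5 Krt14-only cells. The pubertal cells are part of 346 cells from 3 stages, taken from female FVB/NJ mice, an inbred strain, of 4.7 to 4.9 weeks of age at puberty and 10 weeks in the adult. They were sorted as total epithelium negative for Ter119, CD31 and CD45, the surface proteins of red blood cells, vessel lining and leukocytes, and were captured on Fluidigm C1 chips, whose chambers are made to hold 1 cell each. The series places 8 mice behind each stage, whereas the study's text gives other numbers of mice for each sort. The study also retained more pubertal C1 cells than the 136 here. No label ties a cell to a mouse. Each class was therefore 1 pooled sample, no test was possible between classes, and every interval describes counting error alone.

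The ducts of the mammary gland have an inner layer of luminal cells, which line the lumen and later secrete milk, and an outer layer of basal, or myoepithelial, cells. Basal cells contract in answer to oxytocin, rest on a basement membrane that they help to build, and carry keratins 5 and 14, whereas luminal cells carry keratins 8, 18 and 19. At puberty the ducts grow out from terminal end buds, whose outermost cells are called cap cells, and luminal cells include hormone-sensing cells with receptors for oestrogen, progesterone and prolactin and progenitors that lack most of these receptors.

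The keratins that chose the cells are given as a description. Krt14, the basal keratin, ran from 54.0 to 3990 RPKM in basal cells, with a median of 270.4. In luminal cells it had a median of 0 RPKM and no read in 55 of 80 cells. The cells nearest to the threshold stood at 30.0 and 34.6 RPKM of Krt14 on the luminal side and at 54.0 and 56.1 on the basal side, so few cells lay close to it. For Krt8 the nearest cells stood at 38.0 and 48.4 RPKM, and for Krt18 at 33.2 and 46.7. The luminal keratins were present on both sides: Krt18 had a median of 2078 RPKM in luminal cells and 868.2 in dual cells, and Krt8 had 604.8 and 276.0. Of the dual cells, 19 passed for both luminal keratins, 4 for Krt8 alone and 1 for Krt18 alone. In the 5 Krt14-only cells Krt8 ran from 0 to 38.0 RPKM and Krt18 from 0 to 28.0, while Krt14 ran from 146.2 to 1457.

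**Figure D1:**
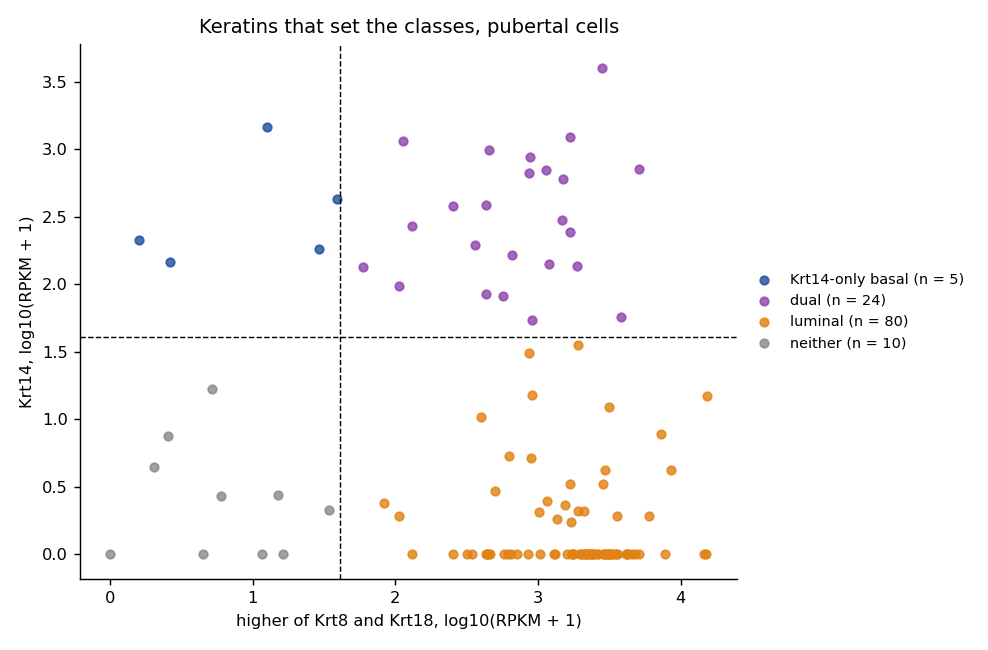
Krt14 against the higher of Krt8 and Krt18 in the 119 kept pubertal cells, both as log10(RPKM + 1), with dashed lines at 40 RPKM. Each point is 1 cell, and 24 of the 29 cells above the Krt14 line also lie to the right of the luminal line.

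Basal and luminal cells were read to a like depth. The median was 539129 reads on the analysed genes in basal cells (156412 to 1180584) and 578262 in luminal cells (127223 to 1170241). After every cell was thinned at random to 100000 reads, the median cell detected 2885 genes in the basal, 2740 in the luminal and 2962 in the dual class. The mitochondrial share of all reads had a median of 8.43% in basal (0.99 to 23.5) and 10.7% in luminal cells (4.11 to 59.6). No cell was removed for its mitochondrial share. Basal cells made up 12 of the 58 kept cells numbered up to 68 in their titles and 17 of the 61 numbered above it. Some cells carried markers of cells outside the epithelium: 50% or more of the markers for fibroblasts, endothelium, pericytes or Schwann cells were detected in 8 basal cells, 7 of them dual, and in 5 luminal cells. Without these cells the median log2 ratios used below moved, among others, for basal lineage markers (3.36 to 4.22), basal transcription factors (2.32 to 2.87), basement membrane genes (1.87 to 2.39) and fibroblast markers (-1.31 to 2.02). Of 11 immune markers, none reached 10 CPM in either class.

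Across the transcriptome, reads were summed over the cells of a class and given as counts per 1000000 reads (CPM). A gene was called higher in a class at a log2 ratio of 1 or more, after adding 5 CPM to both values. Of 9248 genes at 10 CPM or more in either class, the keratins of the rule left out, 2014 were higher in basal cells (21.8%) and 2352 in luminal cells (25.4%), with a median log2 ratio of -0.11. Many of the former rested on 1 cell: when the cell with the most reads of each gene was left out of each class, 993 genes were higher in basal and 2373 in luminal cells. The study lists 200 basal and 200 luminal genes from bulk RNA of sorted adult cells, so these lists were not drawn from the pubertal cells. Of the basal genes 136 reached 10 CPM, and 115 of them were higher in basal and 3 in luminal cells, with a median log2 ratio of 2.49. Of the luminal genes at 10 CPM, 96 (65.3%) were higher in luminal and 8 in basal cells, with a median of -1.31. This order of the signatures depended on the dual cells and on single cells. With the Krt14-only cells alone as the basal class, 83 basal and 138 luminal signature genes were called, at medians of 2.51 and -3.30. Among all genes in that setting, 1824 were higher in basal and 4475 in luminal cells, so luminal calls rose beyond the signature as well. Without the top cell of each gene, 95 basal and 105 luminal signature genes were called.

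**Figure D2:**
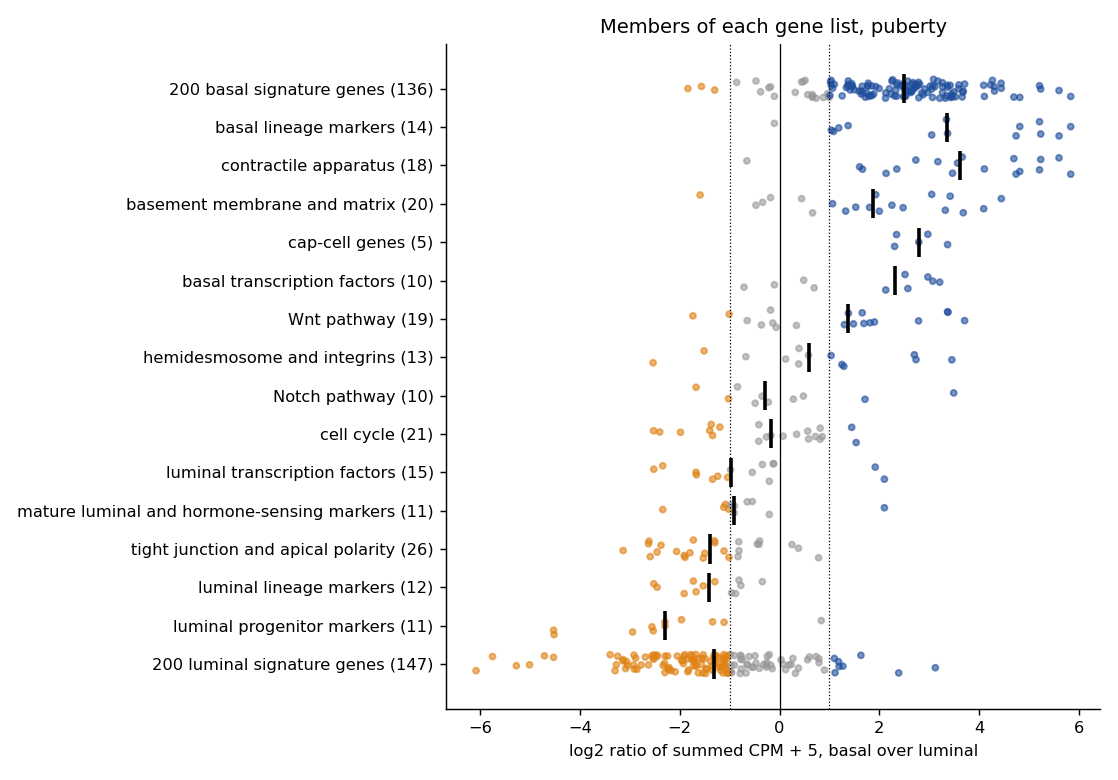
Log2 ratio of basal over luminal summed CPM, after adding 5 CPM, for each member of 16 gene lists that reached 10 CPM, the number of members given in brackets. Black bars are medians, dotted lines mark a log2 ratio of 1 in either direction, and the contractile genes have the highest median, at 3.61.

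The contractile genes lay on the basal side. By median their list was the highest of those tested. With Krt14-only cells alone as the basal class it stood at 2.99, below basal lineage markers at 3.30. Cap-cell genes (3.85), adipocyte markers (3.73) and endothelial markers (3.53) were higher still in that setting. Without the cells rich in markers of another type, basal lineage markers were higher (4.22 against 3.78). Those markers share genes with the contractile list, among them Acta2, Myh11 and Tagln. Of 18 contractile genes at 10 CPM, 17 were higher in basal and 0 in luminal cells, beside 21.8% of all genes, with a median log2 ratio of 3.61. Acta2, which encodes smooth muscle actin, ran from 0 to 27582 CPM over the basal cells, with a median of 4688, and from 0 to 1900 over the luminal cells, with a median of 1.57. No luminal cell reached the basal median of Acta2, and 1 basal cell fell below the luminal median. The summed level was 5494 CPM (5459 to 5529) against 143.7 (140.2 to 147.3), a log2 ratio of 5.21. Tagln, the actin-binding protein transgelin, ran from 4.50 to 15527 CPM in basal cells, with a median of 1074, and had a median of 0 and a highest value of 1071 in luminal cells. Its log2 ratio of 5.83 was the largest of the genes at 100 CPM or more detected in at least 50% of the thinned basal cells. Myh11, the smooth muscle myosin heavy chain, had 595.2 CPM in basal and 7.39 in luminal cells, and Mylk, the kinase that switches myosin on, had 1045 and 22.9.

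The regulatory light chain Myl9 and the actin-binding calponin Cnn1 followed, with log2 ratios of 4.69 and 4.81. Of the luminal reads of Cnn1, 60.8% came from 1 cell, and the ratio was 5.41 with the top cell of each class left out. Oxtr, the oxytocin receptor, had 307.8 CPM in basal and 6.72 in luminal cells, but 50.2% of its basal reads came from 1 cell and its basal median was 10.5 CPM. Without the top cell of each class it stood at 160.3 against 0.14 CPM. Myl6, a light chain that is not limited to muscle, differed less, with 181.9 against 56.5 CPM. The exception was Srf, which encodes serum response factor, the activator of many contractile genes, with 30.1 CPM in basal and 50.2 in luminal cells, a log2 ratio of -0.65 that was -1.32 without the top cells.

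Serum response factor binds the CArG box, a run of CC, 6 letters that are A or T, and GG. The promoter windows of Acta2 and Myl9 are shown because among contractile genes with a log2 ratio above 4 and a window in the table these held a box, when 1 C or G was allowed among the 6 central letters. The windows are from RefSeq on GRCm38.p6, from 250 bases before to 50 after the start, on the gene's own strand, and the boxes are in capitals. Acta2 lies at chr19:34255324-34255623 on the minus strand, with boxes that begin 84 and 34 bases before the start. Myl9 lies at chr2:156775214-156775513 on the plus strand, with boxes that begin 161 and 99 bases before it.
Acta2: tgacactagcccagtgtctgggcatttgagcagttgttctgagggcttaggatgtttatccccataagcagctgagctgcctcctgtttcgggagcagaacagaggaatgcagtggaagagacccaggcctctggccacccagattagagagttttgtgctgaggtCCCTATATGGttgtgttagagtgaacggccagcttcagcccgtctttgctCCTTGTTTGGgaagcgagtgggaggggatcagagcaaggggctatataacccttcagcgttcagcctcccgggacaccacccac
Myl9: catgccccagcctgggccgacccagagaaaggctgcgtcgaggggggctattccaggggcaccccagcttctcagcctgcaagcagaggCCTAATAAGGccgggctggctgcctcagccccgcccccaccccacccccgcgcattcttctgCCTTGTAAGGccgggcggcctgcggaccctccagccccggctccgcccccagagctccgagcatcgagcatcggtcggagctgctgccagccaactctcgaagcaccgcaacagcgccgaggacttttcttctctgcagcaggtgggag
With no C or G allowed in the centre, Myl9 kept 1 box and Acta2 none. Of the 20 contractile genes 15 had a window in the table, with 19 windows in all. Tagln, Myh11, Actg2, Nexn and Myocd had none. Of the 19 windows 4 held a box in this wider form, which takes in the strict one (those of Acta2, Myl9, Myl6 and Srf), as did 9.98% of all 32851 windows. The strict form was in 3 of the 19 (Myl9, Myl6 and Srf) and in 1.63% of all windows. The box reads the same in form on both strands. A match describes these letters only.

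**Figure D3:**
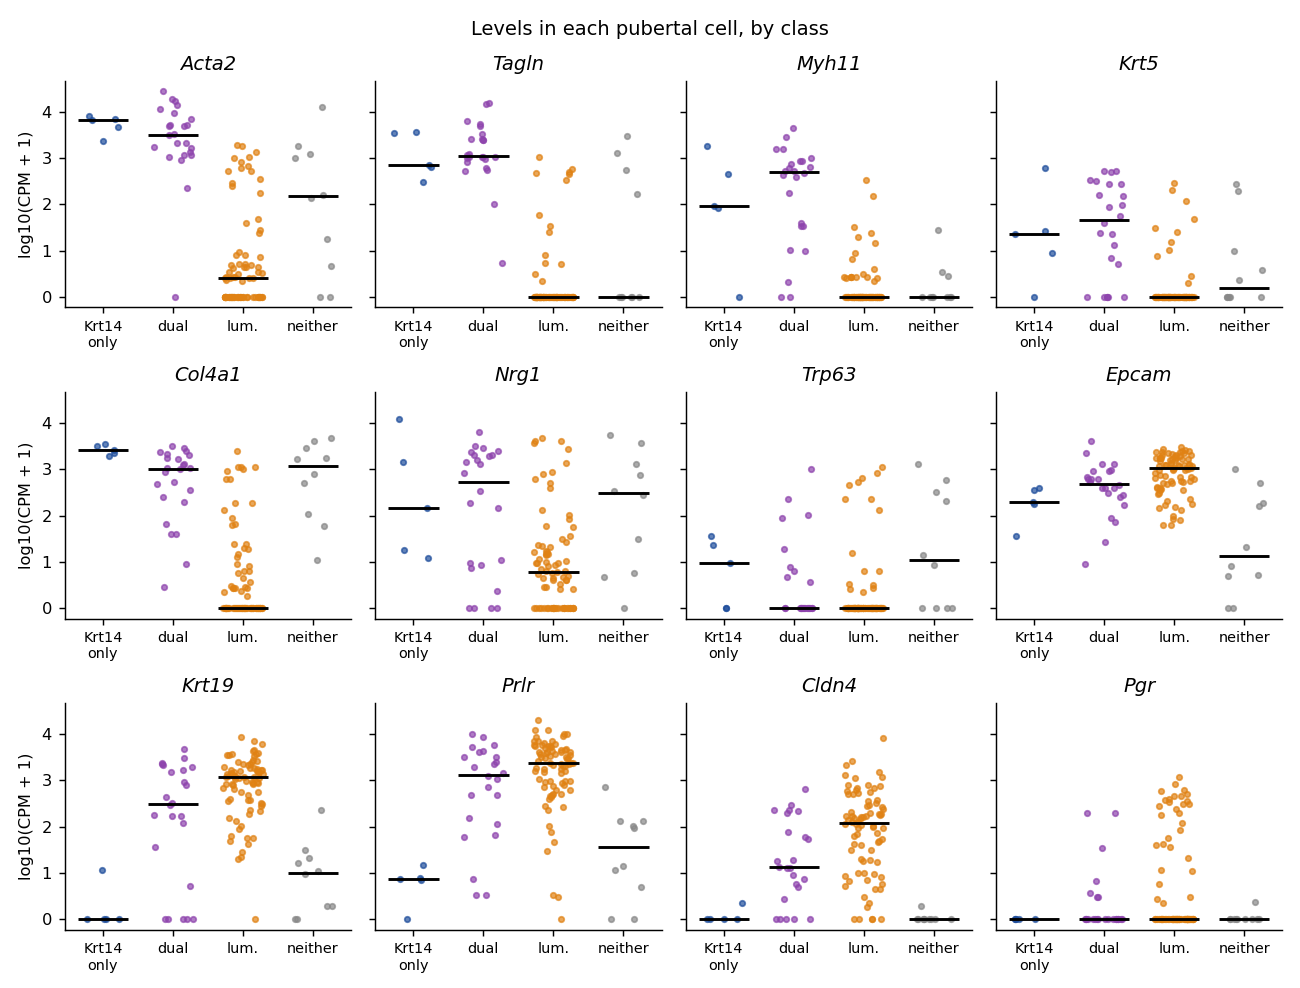
Levels of 12 genes in each of the 119 kept pubertal cells, as log10(CPM + 1), by class, with the class median as a black bar. Acta2, Tagln and Myh11 are high in the dual and Krt14-only classes, whereas Krt19, Prlr and Cldn4 are high in the luminal class and in part of the dual cells.

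Genes of the basement membrane and matrix were mostly higher in basal cells as well: 14 of 20 against 1 in luminal cells, beside 21.8% and 25.4% of all genes, with a median log2 ratio of 1.87. Col4a1, a chain of the collagen of basement membranes, ran from 1.94 to 3515 CPM in basal cells with a median of 1228, against a median of 0 and a highest value of 2445 in luminal cells. Its partner chain Col4a2 had 967.4 against 85.9 CPM in all, and 2 luminal cells lay above its basal median. The laminin chain Lamc1 had 270.6 against 22.6 CPM, and Col18a1, the source of endostatin, 209.7 against 7.61. Postn, the matrix protein periostin, had 1249 against 52.7 CPM. The laminin chain Lama5 went the other way, with 44.1 CPM in basal and 142.9 in luminal cells, 59.0% of the latter from 1 cell, and a ratio of -0.64 without the top cells. Nid1, which links laminin to collagen, had 169.5 and 237.2 CPM, with 52.5% of the luminal reads from 1 cell and a ratio of -0.05 without the top cells.

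Genes for adhesion to that membrane were less divided. Of 13 hemidesmosome and integrin genes, 6 were higher in basal and 2 in luminal cells, beside 21.8% and 25.4% of all genes, and 5 and 3 without the top cells. Col17a1, a collagen of hemidesmosomes, had 238.9 CPM in basal and 17.3 in luminal cells, 50.3% of the latter from 1 cell. Itgav, an integrin chain, had 491.6 and 198.4, and Plec, which ties keratin filaments to the membrane, 586.4 and 938.5. Itgb6, an integrin chain of epithelia, had 32.3 CPM in basal and 210.7 in luminal cells, with 90.1% of the basal reads from 1 cell and a ratio of -4.21 without the top cells. Of 9 desmosome genes 2 were higher in basal and 3 in luminal cells, or 22.2% and 33.3%, near the shares of all genes. Perp, a desmosomal membrane protein and p63 target, had 734.4 and 138.9 CPM, Dsp 649.9 and 345.8, and Jup 86.5 and 135.1. The other basal desmosome gene, Dsc3, had all of its basal reads in 1 cell, and its log2 ratio was -0.06 without the top cells and -0.22 without the cells rich in markers of another type.

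Basal keratins other than Krt14 were uneven among basal cells. Krt5, which pairs with Krt14, had a median of 25.4 CPM over basal cells (0 to 621.1) and a median of 0 over luminal cells (0 to 291.8). After thinning it was detected in 21 of 29 basal cells (72.4%, 52.8 to 87.3) and 6 of 80 luminal cells (7.50%, 2.80 to 15.6). Krt17 had 217.5 CPM in basal and 103.3 in luminal cells, with 50.2% and 68.2% of the reads from 1 cell each, and a log2 ratio of 1.04 that was 1.61 without them. In the whole list of basal lineage markers, 13 of 14 at 10 CPM were higher in basal and 0 in luminal cells. All genes gave 21.8% and 25.4%, and the list's median log2 ratio was 3.36. The summed level of the 15 markers had a median of 10090 CPM over basal cells (2119 to 44567) and of 9.02 over luminal cells (0 to 5389), so the classes overlapped in the upper luminal cells.

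The basal marker that did not divide the classes was Trp63, the transcription factor p63 of basal cells. It had 43.6 CPM (40.5 to 46.8) in basal and 47.2 (45.2 to 49.3) in luminal cells, and 64.8% of its basal reads came from 1 cell. It was detected after thinning in 7 of 29 basal cells (24.1%, 10.3 to 43.5) and 9 of 80 luminal cells (11.3%, 5.28 to 20.3). Without the top cells its log2 ratio went from -0.10 to -0.98. The highest luminal values of Trp63 were 1116, 812.9, 659.6, 520.8 and 461.5 CPM. After thinning, these cells detected 8, 2, 7, 9 and 8 of the 15 basal markers, against 1 in the median luminal cell. Of 10 basal transcription factors at 10 CPM, 6 were higher in basal and 0 in luminal cells, beside 21.8% and 25.4% of all genes. Snai2, the repressor Slug, had 103.3 CPM in basal and 8.81 in luminal cells, and a log2 ratio of 2.97 that was 3.18 without the top cells, which held 48.1% and 80.6% of the reads. Id4 had 120.2 against 8.55 CPM, with 81.8% of the luminal reads from 1 cell and a ratio of 3.40 without the top cells. Tcf4 had 252.3 and 178.8 CPM. Sox11, a transcription factor of developing tissues that was named by its ratio and not by a list, had 1011 CPM in basal and 15.3 in luminal cells, yet 17 of 29 basal and 27 of 80 luminal cells had a read of it and its basal median was 27.8 CPM. Its top luminal cell held 51.7% of the luminal reads, and the ratio was 5.77 without the top cells.

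Genes of signalling pathways differed by member. Of 19 Wnt pathway genes at 10 CPM, 11 were higher in basal and 2 in luminal cells, with a median log2 ratio of 1.38. Without the top cells 8 and 3 were, and of all genes 21.8% and 25.4% were called in the main setting. Lgr4, a receptor for R-spondins, was read in all 29 basal cells, at 94.9 to 5193 CPM with a median of 1510, and in 69 of 80 luminal cells, with a median of 95.1. Wif1, a secreted Wnt inhibitor, had 91.8 against 4.38 CPM, with 80.2% of the luminal reads from 1 cell and a ratio of 3.44 without the top cells. The ligand Wnt5a was on the luminal side, with 201.0 CPM in basal and 680.5 in luminal cells. Of 10 Notch genes 2 were higher in each class, a share of 20% that is near that of all genes, and 1 in each without the top cells. The ligand Dll1 had 68.2 against 1.51 CPM but a read in 11 of 29 basal cells, while the ligand Jag1 had 1441 and 1188, and the target Hes1 125.6 and 161.2. Of 10 ErbB genes 1 was higher in basal and 3 in luminal cells, beside 21.8% and 25.4% of all genes, and 1 and 6 without the top cells. The basal one was the ligand Nrg1, with 1415 against 274.6 CPM, and the luminal ones included the ligand Areg, with 451.4 against 918.3.

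The list for cap cells held 5 genes, taken from a basal cluster of pubertal and adult cells of this series, and their link to cap cells is tentative. Their side was therefore fixed by the choice, and their values are a description. Their log2 ratios ran from 2.31 to 3.37 (21.8% of all genes were higher in basal cells). Moxd1, a monooxygenase, had a median of 293.7 CPM over basal cells (1.46 to 4286) and 11.8 over luminal cells (0 to 1959). Nrg1 had medians of 331.9 and 4.93 CPM, and 11 luminal cells lay above its basal median. Bmp7, a ligand of the TGF-beta family, had 29.8 and 2.05 CPM, with 57.1% and 64.1% of the reads from 1 cell and a ratio of 1.68 without them. At least 3 of the 5 genes were detected after thinning in 4 of 5 Krt14-only, 10 of 24 dual, 9 of 80 luminal and 5 of 10 neither cells. Of 22 genes of FGF, IGF, HGF and TGF-beta signalling, 8 were higher in basal and 3 in luminal cells, beside 21.8% and 25.4% of all genes, and 9 and 8 without the top cells. The binding proteins Igfbp2 and Igfbp3 had 65.7 and 116.7 CPM in basal and 2.36 and 11.6 in luminal cells, with 54.6% of the luminal reads of Igfbp3 from 1 cell and a ratio of 3.12 without the top cells, and the receptor Tgfbr2 had 15.2 and 156.1. The latter was among the 10 largest luminal ratios. Htra1, a secreted protease, was among the 10 largest basal ratios, with 17 of 29 basal and 5 of 80 luminal cells positive after thinning.

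On the luminal side the largest ratio among genes at 100 CPM or more detected in at least 50% of the thinned luminal cells was that of Tmc4, a membrane protein, with 12.2 CPM in basal and 175.7 in luminal cells and a log2 ratio of -3.39. Ocln, the tight junction protein occludin, had 10.9 and 134.6 CPM, and Etfa, an electron carrier of mitochondria, 7.18 and 101.6. Plet1, a surface protein also listed for progenitors, had 27.1 and 241.6 CPM, with 51.1% of the basal reads from 1 cell and a ratio of -3.54 without the top cells. Swt1, Ptprf, Tmprss13, Ptbp3 and Zmiz1 completed the 10, at log2 ratios of -2.79, -2.69, -2.51, -2.51 and -2.38. Ptprf is a receptor phosphatase and Ptbp3 an RNA-binding protein. Tmprss13, a membrane protease, had a read in 71 of 80 luminal and 17 of 29 basal cells.

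Tight junction and polarity genes lay on the luminal side: 17 of 26 were higher in luminal and 0 in basal cells, beside 25.4% of all genes, with a median log2 ratio of -1.40. The claudin Cldn4 ran from 0 to 8402 CPM in luminal cells with a median of 120.8, and from 0 to 663.2 in basal cells with a median of 8.27. Cldn7 had 171.1 CPM in luminal and 56.0 in basal cells, Cldn3 153.7 and 59.6, and the cell adhesion molecule Cdh1, or E-cadherin, 99.3 and 26.6. The protease inhibitor Spint1 went the other way without reaching the limit for a call, with 153.7 CPM in basal and 87.3 in luminal cells. Of 12 luminal lineage markers 7 were higher in luminal and 0 in basal cells, with a median log2 ratio of -1.41. Epcam, an adhesion molecule of all epithelia, was detected after thinning in every cell of both classes, at 653.3 CPM in basal and 1151 in luminal cells. Krt19, a luminal keratin that the rule did not use, had 777.8 and 1334 CPM, with medians of 170.2 and 1163. Krt7 had medians of 0 and 138.4 CPM, with a read in 13 of 29 basal and 71 of 80 luminal cells.

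With the dual cells counted as basal, hormone receptors and their targets divided the classes little. Of 11 mature luminal and hormone-sensing markers, 4 were higher in luminal and 1 in basal cells, beside 25.4% and 21.8% of all genes, with a median log2 ratio of -0.91. Without the top cells 6 were higher in luminal and 0 in basal cells. With Krt14-only cells alone as the basal class the median was -4.99. Prlr, the prolactin receptor, had a median of 701.8 CPM over basal cells (0 to 10102) and 2338 over luminal cells (0 to 20095), and was detected after thinning in 25 of 29 and 78 of 80 cells. Esr1, the oestrogen receptor, had 42.2 CPM in basal and 63.9 in luminal cells, with a read in 9 of 29 and 44 of 80 cells. Pgr, the progesterone receptor, differed more, at 18.9 against 116.0 CPM, with detection in 3 of 29 basal (10.3%, 2.19 to 27.4) and 29 of 80 luminal cells (36.3%, 25.8 to 47.8). Foxa1, which opens chromatin for the oestrogen receptor, had 150.5 and 174.3 CPM, with 62.3% of the basal reads from 1 cell and a ratio of -0.99 without the top cells. Areg, a ligand induced by oestrogen, Cited1, a coactivator, and Ly6d, a surface protein, had log2 ratios of -1.02, -0.98 and -1.08.

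Luminal transcription factors gave 7 of 15 higher in luminal and 2 in basal cells, beside 25.4% and 21.8% of all genes. Ehf and Elf3, both of the ETS family, had 22.1 and 28.5 CPM in basal and 150.2 and 101.8 in luminal cells. For Ehf 66.9% of the basal reads came from 1 cell, and the ratio was -3.36 without the top cells. Gata3, which maintains luminal cells, was detected in all 29 basal and 77 of 80 luminal cells after thinning, at 499.9 and 636.1 CPM. Tbx3 had 71.4 and 77.8 CPM. Tfap2c, on the luminal list, was higher in basal cells, with 178.2 against 43.5 CPM and medians of 111.3 and 0.

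Luminal progenitor markers had 10 of 11 members higher in luminal and 0 in basal cells, beside 25.4% and 21.8% of all genes. The list's median log2 ratio was -2.30, but its reads came from few cells. At least 50% of the 12 markers were detected after thinning in 11 of 80 luminal and 1 of 29 basal cells. Their summed level had a median of 330.6 CPM over luminal cells and a highest value of 86271. Over basal cells the median was higher, at 1200 CPM, and the highest value was 13936. The median cell detected 2 of the markers in the luminal and 3 in the basal class. None was detected in 12 luminal and 0 basal cells. Kit, the stem cell factor receptor, had 2 reads in basal cells (0.12 CPM, 0.01 to 0.42) and 904 in luminal cells (20.1 CPM), from 13 cells, with 60.3% from 1 and a ratio of -1.37 without the top cells. Elf5, which drives alveolar fate, had 2.57 and 14.2 CPM, with reads in 2 basal and 8 luminal cells and a ratio of -1.11 without the top cells. Aldh1a3 had 9.10 and 64.2 CPM, with reads in 5 and 13 cells and a ratio of -2.35 without the top cells. Cd55 had 40.7 and 263.9 CPM, with reads in 8 and 21 cells and a ratio of -2.65. Ltf, or lactoferrin, had no read in basal cells and 109.4 CPM in luminal cells, from 11 cells, which is at least 625 times the limit of 3 reads over the basal class. Trf, or transferrin, had 73.3 and 1800 CPM. The exception was Lcn2, or lipocalin 2, with 823.9 CPM in basal and 459.4 in luminal cells, and medians of 367.8 and 0.

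Milk protein genes showed the same dependence on few cells. Of 7 at 10 CPM, 6 were higher in luminal and 1 in basal cells, beside 25.4% and 21.8% of all genes. Without the top cells 4 and 1 were. All 5654 reads of Csn2, or beta-casein, came from 1 luminal cell, and 61.0% of the luminal reads of Csn1s1 came from 1 cell, with a ratio of -4.75 without the top cells. Csn3, or kappa-casein, had 1340 CPM in basal and 2900 in luminal cells, with reads in 15 of 29 and 27 of 80 cells. The basal one was Mfge8, a protein of milk fat globules that other cells also make, with 450.9 against 130.4 CPM and medians of 279.5 and 0.86. By cell, the summed level of all 11 milk protein genes, Mfge8 among them, had a median of 536 CPM in basal and 6.31 in luminal cells. None of the 11 was detected after thinning in 2 of 29 basal and 41 of 80 luminal cells. By class they summed to 3814 CPM in luminal, 1080 in dual and 4075 in Krt14-only cells.

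The dual cells carried both sets of genes. The basal lineage markers summed to 13341 CPM (13279 to 13404) in dual cells, 10724 (10624 to 10825) in Krt14-only cells and 691.3 (683.7 to 699.1) in luminal cells. These intervals do not measure the spread between cells. By cell, the basal markers had a median of 10243 CPM in dual cells (2119 to 44567) and 9742 in Krt14-only cells (5586 to 16675), so these 2 classes overlapped. The luminal lineage markers summed to 3695 CPM (3662 to 3728) in dual, 870.7 (842.3 to 899.8) in Krt14-only and 5738 (5716 to 5760) in luminal cells. After thinning, at least 5 of 15 basal markers were detected in all 24 dual and 5 Krt14-only cells and in 13 of 80 luminal cells. At least 5 of 12 luminal markers were detected in 17 of 24 dual, 0 of 5 Krt14-only and 79 of 80 luminal cells. Both held in 17 dual and 12 luminal cells. The dual class was chosen on Krt8 and Krt18, so more luminal transcripts in it than in the Krt14-only class are part of the choice, and 5 cells are few to compare with.

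**Figure D4:**
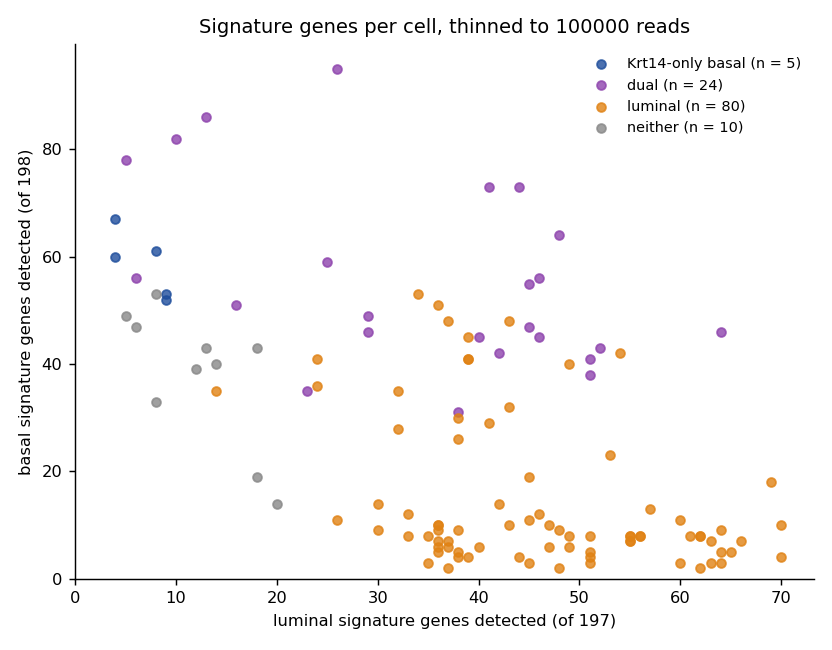
Number of basal signature genes (of 198) against luminal signature genes (of 197) detected in each kept pubertal cell after thinning to 100000 reads, colored by class. Most luminal cells lie low and to the right, the 5 Krt14-only cells high and to the left, 14 of 80 luminal cells reach the 31 basal genes of the lowest dual cell, and the 24 dual cells spread from 5 to 64 luminal genes.

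The signature genes gave the same picture by cell. The median dual cell detected 50 of 198 basal and 40.5 of 197 luminal signature genes, the median luminal cell 8 and 44.5, and the median Krt14-only cell 60 and 8. Dual cells spread from 5 to 64 luminal genes, and 9 of 24 reached the luminal median while 5 had fewer than 20, as 1 of 80 luminal cells did. The hormone-sensing markers summed to 4981 CPM in dual, 7343 in luminal and 9.30 in Krt14-only cells, and the progenitor markers to 2314, 7944 and 3839. Prlr had 2580 CPM in dual and 6.85 in Krt14-only cells, Krt19 1021 and 1.96, and Ly6d 800.0 and 0. Contractile genes had 15865 CPM in dual and 14133 in Krt14-only cells, and Epcam 793.7 and 204.6. With the 5 Krt14-only cells alone as the basal class, 1824 genes were higher in basal and 4475 in luminal cells, and the median log2 ratio was -4.99 for hormone-sensing, -4.65 for luminal lineage and -4.52 for progenitor markers and -3.53 for tight junction genes. No doublet caller was run, and the wells had been inspected under a microscope by the authors. Whether some dual cells were 2 cells in 1 chamber was not tested.

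**Figure D5:**
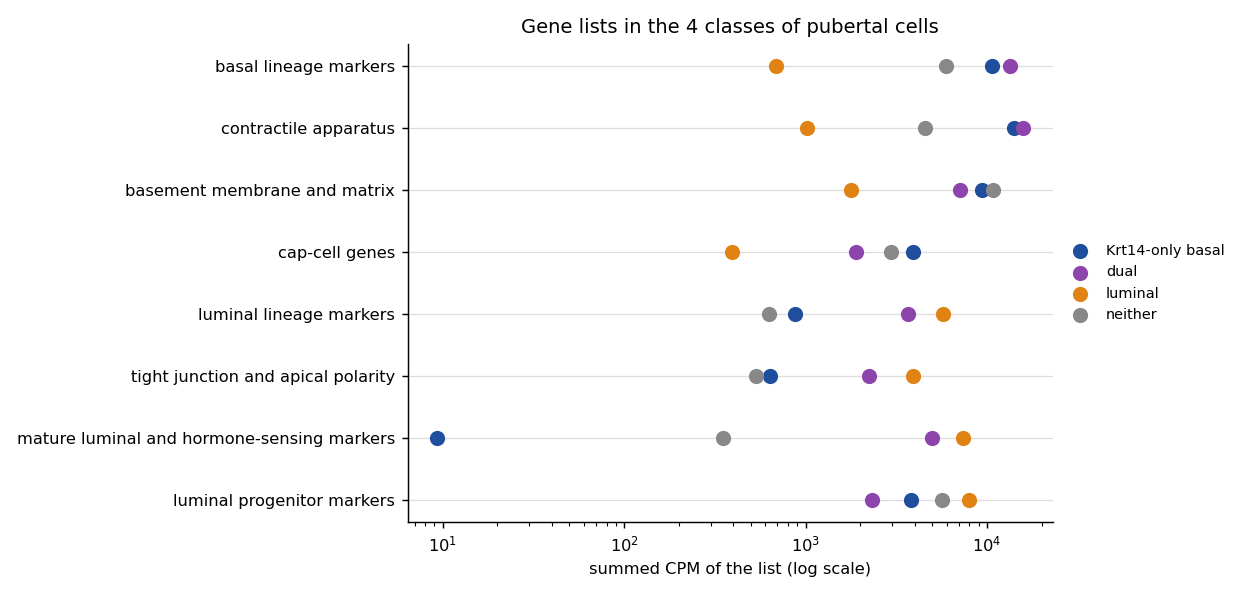
Summed CPM of 8 gene lists in the 4 classes of pubertal cells, on a log axis, 1 point for each class. Dual cells lie near the Krt14-only cells for basal and contractile genes and near the luminal cells for luminal lineage and hormone-sensing genes. For progenitor markers the dual cells are the lowest of the 4 classes, at 2314 CPM against 7944 in luminal cells.

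Markers of other cell types were not spread evenly. Of 14 fibroblast markers at 10 CPM, 9 were higher in luminal and 0 in basal cells, beside 25.4% and 21.8% of all genes. The list's median log2 ratio was -1.31. The summed level of the 16 markers ran from 0 to 60909 CPM in luminal cells, with a median of 13.2, and from 0 to 18406 in basal cells, with a median of 240.7. At least 50% of them were detected in 4 luminal and 3 dual cells, and without all cells rich in markers of another type the median ratio was 2.02. Of 7 endothelial markers 4 were higher in basal and 0 in luminal cells, and 3 and 0 without the top cells. In 58 of 80 luminal and 17 of 29 basal cells none of these markers was detected. Their summed level ran from 0 to 2096 CPM in basal and from 0 to 1218 in luminal cells. All 4 pericyte markers at 10 CPM were higher in basal cells, at sums of 98.3 against 8.32 CPM, and by cell from 0 to 1322 and from 0 to 273.9. Without the top cells 3 were. The sum was 115.5 CPM in dual and 43.3 in Krt14-only cells. After thinning, 13 of 24 dual, 4 of 5 Krt14-only and 63 of 80 luminal cells had none of the pericyte markers. Pericytes also make contractile proteins. Of 6 Schwann markers 3 were higher in basal and 0 in luminal cells, and 2 in each without the top cells, and their summed level ran from 0 to 4055 CPM in basal and from 0 to 1123 in luminal cells. Without the cells rich in such markers 21 basal and 75 luminal cells remained, with 2003 genes higher in basal and 2671 in luminal cells, and the median log2 ratio was 4.22 for basal lineage markers and 3.78 for contractile genes.

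The same rule was applied to the adult cells, of which 18 were basal, 13 of them dual (72.2%, 46.5 to 90.3), and 22 luminal. More genes were called there, 33.1% higher in basal and 37.6% in luminal cells. All 18 contractile genes and 14 of 15 basal lineage markers at 10 CPM were higher in adult basal cells, as were 115 of 125 basal signature genes. Hormone-sensing markers had 10 of 11 higher in luminal cells, against 4 of 11 at puberty. Esr1 had 1.09 CPM in adult basal and 355.7 in adult luminal cells, Cited1 7.10 and 1188, and Trp63 162.9 and 26.0. Of 7113 genes at 10 CPM at both stages, 1335 were higher in basal cells at puberty and 2267 in the adult, and 660 at both, which is 49.4% of the former and 29.1% of the latter. In the opposite direction stood 369 of the 1335 (27.6%). Of all 7113 genes 31.9% were higher in adult basal and 35.9% in adult luminal cells. Of 1601 genes higher in luminal cells at puberty, 774 were so in the adult (48.3% of these and 30.3% of the adult 2555) and 424 were opposite (26.5%). Among the largest pubertal ratios, Htra1 had 2.73 and 2.79 CPM in the adult, and Etfa 157.4 CPM in adult basal and 72.3 in adult luminal cells. The difference between the stages was not tested.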

How the data were processed

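RNA of single cells was measured by full-length sequencing on the Fluidigm C1. The deposited values are whole-number counts of read pairs per gene and cell, not normalised. The authors mapped the read pairs to mm10 with Subread, for which the submitters' processing notes give version 1.4.6, and counted them per Entrez gene with featureCounts. The 2 sequencers named in the methods are not assigned to cells in the labels. The deposited gene lengths were used for RPKM only. Of 27179 genes, 1904 without a symbol in RefSeq GRCm38.p6, 15 mitochondrial genes and 123 for ribosomal proteins were dropped, so that 25137 remained. No 2 cells held identical counts. Reads of a gene that has near-identical copies elsewhere in the genome, as Krt8 and Krt18 each may, are uncertain. Without molecular identifiers amplified copies count separately.

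Reads were summed per class and given as CPM with exact Poisson intervals, and shares with exact Clopper-Pearson intervals, both at 95% and for counting error only. Folds against 0 reads used a limit of 3 reads over the class. Log2 ratios were taken after adding 5 CPM, which understates the change of low genes. Calls needed 10 CPM in either class and a ratio of 2 times. Detection was counted after thinning each cell to 100000 reads. As the labels tie no cell to a mouse, no test was made. No doublet caller was run.

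The cells, the 29 gene lists and the rules were chosen with earlier results of these data known. Named were the keratins of the rule, the 10 largest ratios in each direction given 100 CPM and detection in 50% of thinned cells in the higher class, up to 4 members of each list with the largest ratios and up to 2 nearest to 0 or opposite at 50 CPM or more, and known lineage genes. Not all genes of this rule are printed, 2 list members are not reported here, and a few, such as Lcn2, Tfap2c, Lgr4, Mfge8 and Krt17, were also picked after their values were seen. Of the listed symbols 3 had no match (Ptpm, Erbp3 and Ogfr1). Alternatives changed the keratin threshold, coverage filter, gene set, weighting, added CPM, filter and cells. Calculations used Python 3.11.15, numpy 2.4.6, pandas 2.3.3 and scipy 1.17.1 and were tested on simulated cells.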

Additional observations from a re-analysis of the deposited data

Results flagged for a closer look

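The 10 kept pubertal cells that passed for none of the 3 keratins entered no comparison, and their basal lineage markers summed to 5954 CPM (5894 to 6015), above the 691.3 CPM of luminal cells and below the 12718 CPM of basal cells. Over single cells the sum ran from 2181 to 21200 CPM, with a median of 4206. After thinning, 6 of the 10 cells had at least 5 of the 15 basal markers and 1 had at least 5 of the 12 luminal markers. Krt14 was at most 15.9 RPKM in them, Acta2 summed to 1790 CPM, and the median cell detected 41.5 of 198 basal and 12.5 of 197 luminal signature genes. Of these cells 4 also held 50% or more of the markers of fibroblasts, endothelium or Schwann cells, and without them the basal markers of the other 6 summed to 6290 CPM (6212 to 6368). The 17 pubertal cells below the coverage filter had 3190 CPM (3063 to 3321) of the same markers.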

How the results depend on the processing

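The numbers of basal, luminal and dual cells stayed within 1.5 times under every alternative that moved cells, from 21 to 32, 72 to 93 and 17 to 28. Of 95 named genes past 2 times, 82 kept their sign under all 12 alternatives run on them. Of all values of single genes and lists under an alternative, 1097 stayed within their counting interval or close to the list's median, 878 moved further without turning a called direction, and 19 turned. At a filter of 50 CPM, which tests fewer genes, 1045 genes were higher in basal and 942 in luminal cells, and 53 luminal signature genes were higher in luminal cells. Without the cell with the most reads of each gene 993 genes were higher in basal cells, and with the 5 Krt14-only cells as the basal class 4475 were higher in luminal cells, the cause of which was not tested. Basal lineage markers held 1.33% of the reads of dual cells, and 1.24% and 1.41% at 20 and 80 RPKM, 1.29% with 200000 reads and 2500 genes, 1.18% with every gene in the total, 1.41% in thinned cells and 1.56% without cells rich in markers of another cell type, an alternative chosen after seeing the data. In that last alternative the median log2 ratio turned to 2.02 for fibroblast and -0.80 for adipocyte markers, Fabp4 to -0.80, Dsc3 to -0.22, Lum to 0.022 and Col1a2 to 0.015. With Krt14-only cells as the basal class the ratio turned to 0.14 for Csn3, -0.21 for Dkk3, -0.33 for Fzd1, -0.006 for Igfbp3, -2.05 for Krt15, -1.69 for Krt17, -2.63 for Mcm5 and -1.40 for Mef2c. At 20 RPKM it turned to -0.80 for Schwann markers and -2.27 for Pmp22. Dsc3 stood at -0.057 without the top cells, and skeletal muscle markers at -1.88 without a coverage filter and -1.70 with every gene kept. No paired analysis was possible because the labels tie no cell to a mouse and no result comes from a test. With 29 basal cells and 5 Krt14-only cells, genes read in few cells rest on 1 or 2 of them.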

Other observations

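Other gene groups were compared between basal and luminal cells. Of 21 cell cycle genes 2 were higher in basal and 7 in luminal cells, beside 21.8% and 25.4% of all genes, and 1 and 13 with the top cell of each gene left out. Mki67, a marker of dividing cells, had 159.7 CPM in basal and 151.8 in luminal cells and was detected after thinning in 10 of 29 and 25 of 80 cells. Rrm2, which makes deoxynucleotides, had 260.4 and 92.5 CPM, and Birc5, a protein of dividing cells, 37.2 and 106.4, with 64.7% of its basal reads from 1 cell and a log2 ratio of -2.40 without the top cells. Of 17 immediate early genes 3 were higher in basal and 1 in luminal cells: Egr2, with 176.6 against 13.7 CPM, Egr1, with 1141 against 498.7, and Btg2, with 1645 against 703.5, were the basal ones. Jun had 361.6 and 415.9 CPM.

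Of 9 genes of antigen presentation 2 were higher in luminal and 0 in basal cells, beside 25.4% and 21.8% of all genes. Without the top cells 5 were higher in luminal cells, in the adult 8 of 11, and the median log2 ratio was -1.87 with Krt14-only cells alone as the basal class. Psmb8 and Psmb9, subunits of the immunoproteasome, had 111.4 and 1.75 CPM in basal and 244.7 and 70.0 in luminal cells, with a ratio of -3.31 for Psmb9 without the top cells, whereas B2m, the invariant chain of class I molecules, had 1552 and 1753, and H2-D1 645.1 and 621.5. Fabp4, a fatty acid binding protein of fat cells and capillaries, had 1492 CPM in basal and 131.6 in luminal cells, with 66.7% of the luminal reads from 1 cell and a ratio of 4.23 without the top cells. Its ratio was -0.80 without the cells rich in markers of another cell type, and in the adult it had 2.73 CPM in basal and 914.2 in luminal cells.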
